A study of Mus musculus with 16 samples.

Results

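Mga and 9 further genes of the PRC1.6 repressor complex (Max, E2f6, Tfdp1, Pcgf6, L3mbtl2, Rybp, Yaf2, Cbx3 and Ring1) were followed in mouse cells with 1 disrupted gene. They were picked by symbol, as 10 of the 26653 genes that 3 tables of RNA sequencing values hold in all, and all 10 were found in each table (of 23083 genes in embryonic stem cells, 21615 in embryonic fibroblasts and 18288 in kidney fibroblasts). What drew attention to them was the near absence of Mga mRNA in Actg1 knockout fibroblasts. The values of the 10 genes in that knockout are therefore a description, given with no test, and tests were kept for the other comparisons. All 10 genes passed the filter on low values in every table.

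The series examined transcriptional adaptation, in which disruption of a gene is said to change the expression of related genes, and it holds 16 libraries in 8 groups of 2. Of the embryonic stem cells (ESCs), 1 group was wild type, 1 was an Actb K.O. and 1 lacked the whole Actb locus. The embryonic fibroblasts (MEFs) had the same 3 kinds of group for Actg1. For the kidney fibroblasts (MKFs) there was a Kindlin-2 floxed group, with recombination sites around a part of the gene, and a Kindlin-2 K.O. group. In the text, KO stands for knockout and LD for locus deletion. Actb and Actg1 encode the cytoplasmic actins, and Kindlin-2, an activator of integrins, is encoded by Fermt2. The labels name no clone, passage, age or strain and do not say whether the 2 libraries of a group came from separate cultures. A p-value here thus sets a difference against the variation of these libraries alone, some or all of which may be technical.

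PRC1.6 is one of the variant Polycomb repressive complexes. MGA is its large scaffold protein and binds DNA through a T-box domain and, paired with MAX, through a basic helix-loop-helix domain that recognises E-boxes. E2F6 and its partner DP1, encoded by Tfdp1, bring the complex to E2F sites. PCGF6 sets the identity of the complex around the E3 ligases RING1 and RNF2, which place ubiquitin on histone H2A. In stem cells and somatic cells the complex is known for keeping genes of the germ line and of meiosis silent.

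The disrupted genes followed their labels. Actg1 stood at 5737 and 5672 normalised read counts in wild-type MEFs, at 1004 and 1026 in KO and at 25 and 15 in LD. Actb stood at 36364 and 34140 in wild-type ESCs, at 23650 and 22707 in KO and at 2372 and 2336 in LD, and Fermt2 at 3078 and 3142 in floxed and 1251 and 1240 in KO MKFs. Library sums of the values were 16022043 to 16529089 in ESCs, 20305511 to 22094490 in MEFs and 15565648 to 16324223 in MKFs. The cell types fitted their labels in part. The 7 ESC markers summed to 37406 to 42016 in ESCs. The 8 fibroblast markers summed to 34305 to 39726 in wild-type and LD MEFs and to 141777 to 148847 in KO MEFs, with Thy1 at 3 to 22 in all of them. Col1a1 alone stood at 84930 and 91165 in KO against 15137 and 13197 in wild type. Of the 8, 4 rose, 3 did not pass and Pdgfrb fell (−0.72) in KO against wild type. That is 62.5% called, where 39.7% of all genes were. The MKFs nearly lacked fibroblast markers: 5 of the 8 were measured and summed to 138 and 145 in floxed and to 22 and 25 in KO cells, with Pdgfrb at 0 and 1 in the KO. Of 5 kidney tubule markers 4 were measured in the MKFs, and they summed to 7530 and 7360 in floxed and 4690 and 4789 in KO cells. Pax8 stood at 2044 to 2238 in all of them. Against floxed cells Pax2 rose (0.36) and Lrp2 and Aqp1 fell (−2.18 and −0.42). Such a sum does not mark kidney cells alone, since Aqp1 stood at 8593 and 8043 in wild-type MEFs. The 5 epithelial markers summed to 2046 and 2187 in floxed and to 20292 and 20867 in KO MKFs.

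The MEF groups differed from each other beyond single genes. Dcn, a matrix proteoglycan of fibroblasts, stood at 8037 and 7653 in KO libraries against 17 and 14 in wild type and 12 and 5 in LD. Sox2, a pluripotency and neural factor, stood at 1326 and 1306 in KO, at 44 and 32 in wild type and at 0 in both LD libraries. The part of these differences in the results below was not tested. In such bulk libraries, fewer cells with an mRNA and less of it per cell cannot be told apart.

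Mga (ENSMUSG00000033943) lies on GRCm38 chromosome 2 at 119897228 to 119969581, on the plus strand, and overlaps no other annotated gene. The stretch from 250 bases before to 50 after its start, from the RefSeq promoter table on GRCm38.p6, is shown because this is the gene whose mRNA was nearly lost. None of the E-box, E2F and T-box motifs spelled out with the germline genes below occurs in it, which says only that these letters are not in this window.
Mga, chr2:119896978-119897277, plus strand: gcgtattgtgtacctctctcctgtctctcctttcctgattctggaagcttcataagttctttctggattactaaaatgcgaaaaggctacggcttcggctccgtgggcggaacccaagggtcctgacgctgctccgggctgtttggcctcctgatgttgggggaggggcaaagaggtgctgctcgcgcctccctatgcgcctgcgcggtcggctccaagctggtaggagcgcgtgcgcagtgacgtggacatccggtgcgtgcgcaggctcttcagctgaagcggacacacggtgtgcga

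In wild-type MEFs Mga stood at 2130 and 2159 normalised read counts, in KO MEFs at 15 and 10, and in LD MEFs at 2485 and 2681. Both KO libraries thus lay far below the other 4, at 0.699% and 0.466% of the wild-type mean (0.583% ± 0.165, SD, n = 2). The KO values correspond to about 14.2 and 10.7 reads. Of 6065 genes with a wild-type mean of at least 500, 0 kept a lower percentage in the KO than Mga. Of 8340 with a mean of at least 200, 1 did, and of 11026 with a mean of at least 50, 8 did.

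Among the 4016 genes with a wild-type mean of at least 1000, 5 stood under 5% of it in the KO. Besides Mga they were Col18a1, a basement membrane collagen, Chmp2b, a subunit of the ESCRT-III membrane machinery, Adgrl3, an adhesion receptor, and Ptpn22, a tyrosine phosphatase of immune cells. They lie on chromosomes 10, 16, 5 and 3. Col18a1 stood at 81 and 70 in the KO against 4351 and 3846 in wild type, and Chmp2b at 38 and 26 against 1692 and 1708.

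The pattern of Mga over the 6 MEF libraries was matched by other genes. Likeness was measured as the root mean square difference of log2(value + 1), each gene set against its own wild-type mean. Nearest was 4930452B06Rik, at 231 and 231 in wild type, 0 and 0 in KO and 222 and 232 in LD, with a difference of 0.379. Nol4, the antisense transcript Nespas, the mast cell and basophil protease gene Mcpt8 and Zfp518b followed, at 0.451 to 0.772. These 5 genes stood at 64 to 231 in wild-type libraries, so their KO values of 0 or 1 rest on fewer reads than those of Mga. With a wild-type mean of at least 200 required, 4930452B06Rik was the only one of these 5 left among the nearest 5, where Col18a1 and Chmp2b came next.

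The genes around Mga were not lost with it. Of its 5 nearest protein-coding neighbours on each side, 7 of 10 fell in KO against wild-type MEFs (limma, adjusted p below 0.05), where 19.1% of all 21589 genes tested were called lower. The falls were of 0.33 to 1.01 on the log2 scale, against the −7.34 of Mga. Mapkbp1, which starts 75.5 kb beyond the start of Mga, stood at 379 and 349 in KO, 537 and 427 in wild type and 911 and 1026 in LD. Tyro3, a receptor tyrosine kinase gene starting 99.5 kb before Mga, stood at 379 and 404 in KO, 538 and 449 in wild type and 292 and 276 in LD. Ehd4, a gene of endosome traffic, showed the greatest of the 7 falls, from 2446 and 2268 to 1158 and 1172 (adjusted p = 0.000107, limma). Rtf1, Rpap1, Vps39 and Tmem87a fell by 0.78, 0.59, 0.59 and 0.42. Ndufaf1 (−0.21) did not pass, and Itpka and Jmjd7 stood at 10 or less in every MEF library. Left out one at a time, either KO library brought the 7 calls to 4.

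Chromosome 2 was lower along most of its length in these KO cells. The median log2 fold change of its 891 annotated genes with a mean of at least 50 was −0.53 against wild type and −0.63 against LD. Between LD and wild type it was 0.11. In bins of 10 Mb, of which none was available between 40 and 60 Mb, the medians against wild type ran from −0.42 to −0.69. Other autosomes had medians between −0.85 (chromosome 16) and 0.24 (chromosome 8). The neighbours of Mga thus lay near the level of their chromosome, and Mga far below it. The bins of 10 Mb were added after the neighbours were seen, and the part of the chromosome's median in the values of Mga was not tested.

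**Figure D1:**
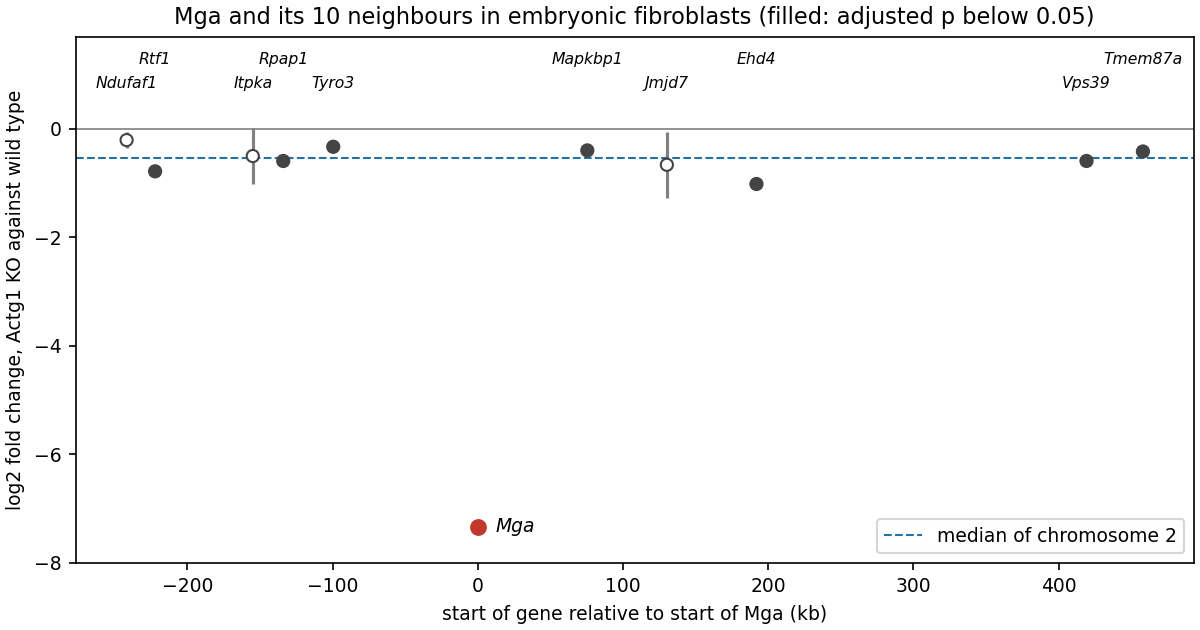
Log2 fold change of Mga (red) and its 10 nearest tested protein-coding genes in Actg1 KO against wild-type MEFs, by distance between the lower coordinates of the genes in kb. Lines are standard errors, filled points passed the test, and the dashed line is the median of chromosome 2 (−0.53). Mga is drawn at −7.34 as a description, with no test, and the neighbours sit between −1.01 and −0.21.

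The DNA-binding partners of MGA did not share its loss. Max, the obligate partner of the MYC, MXD and MGA proteins, stood at 997 and 1029 in KO MEFs, 1227 and 1056 in wild type and 1250 and 1373 in LD. Its KO libraries lay below all others, at a difference of −0.17 from wild type and −0.37 from LD on the log2 scale. Per kb of exon, the Mga to Max ratio was 0.443 ± 0.0512 in wild type, 0.00290 ± 0.000883 in KO and 0.462 ± 0.00586 in LD (SD, n = 2).

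E2f6, which encodes the repressive E2F factor of the complex, was the other member with a large difference in the KO. It stood at 137 and 153 in KO libraries, 220 and 213 in LD and 502 and 487 in wild type. All 3 groups were apart, the KO at 29.3% of wild type. Its chromosome, 12, had a median of −0.33 in KO against wild type over 371 genes. Tfdp1, its dimer partner, stood at 3135 and 3298 in KO, 3422 and 3387 in wild type and 3511 and 3549 in LD, a difference of −0.10 from wild type.

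The core subunits and readers were close to wild type in KO MEFs. Pcgf6 stood at 251 and 289 in KO against 297 and 265 in wild type, and Ring1, an H2A ubiquitin ligase gene, at 97 and 130 against 139 and 137. L3mbtl2, a reader with malignant brain tumour repeats, stood at 564 and 667 against 711 and 698. Of these, Pcgf6 overlapped between the groups and Ring1 and L3mbtl2 did not. Rybp stood at 515 and 549 against 519 and 505, and its paralogue Yaf2 at 1230 and 1189 against 1029 and 1126; the 2 encode alternative subunits that bridge RING1 or RNF2 to the complex. Cbx3, the gene of heterochromatin protein HP1 gamma, stood at 364 and 350 against 381 and 434. It has processed pseudogenes in the genome, so the assignment of its reads is uncertain. Apart from Mga and E2f6, the differences of the members from wild type ran from −0.29 to 0.17.

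The groups did not overlap for 8 of the 10 members in KO against wild type, where 68.5% of all genes tested did not overlap, and for 7 of 10 in KO against LD, where 69.4% did not. Since this knockout chose the members, nothing is read from these counts. The median difference of the members was −0.18 against wild type and −0.20 against LD, beside 0.06 and 0.07 for all genes. Rescaling without the genes that take over 1% of a library brought the members' medians to −0.09 and −0.11, and that of all genes to 0.14 and 0.16.

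**Figure D2:**
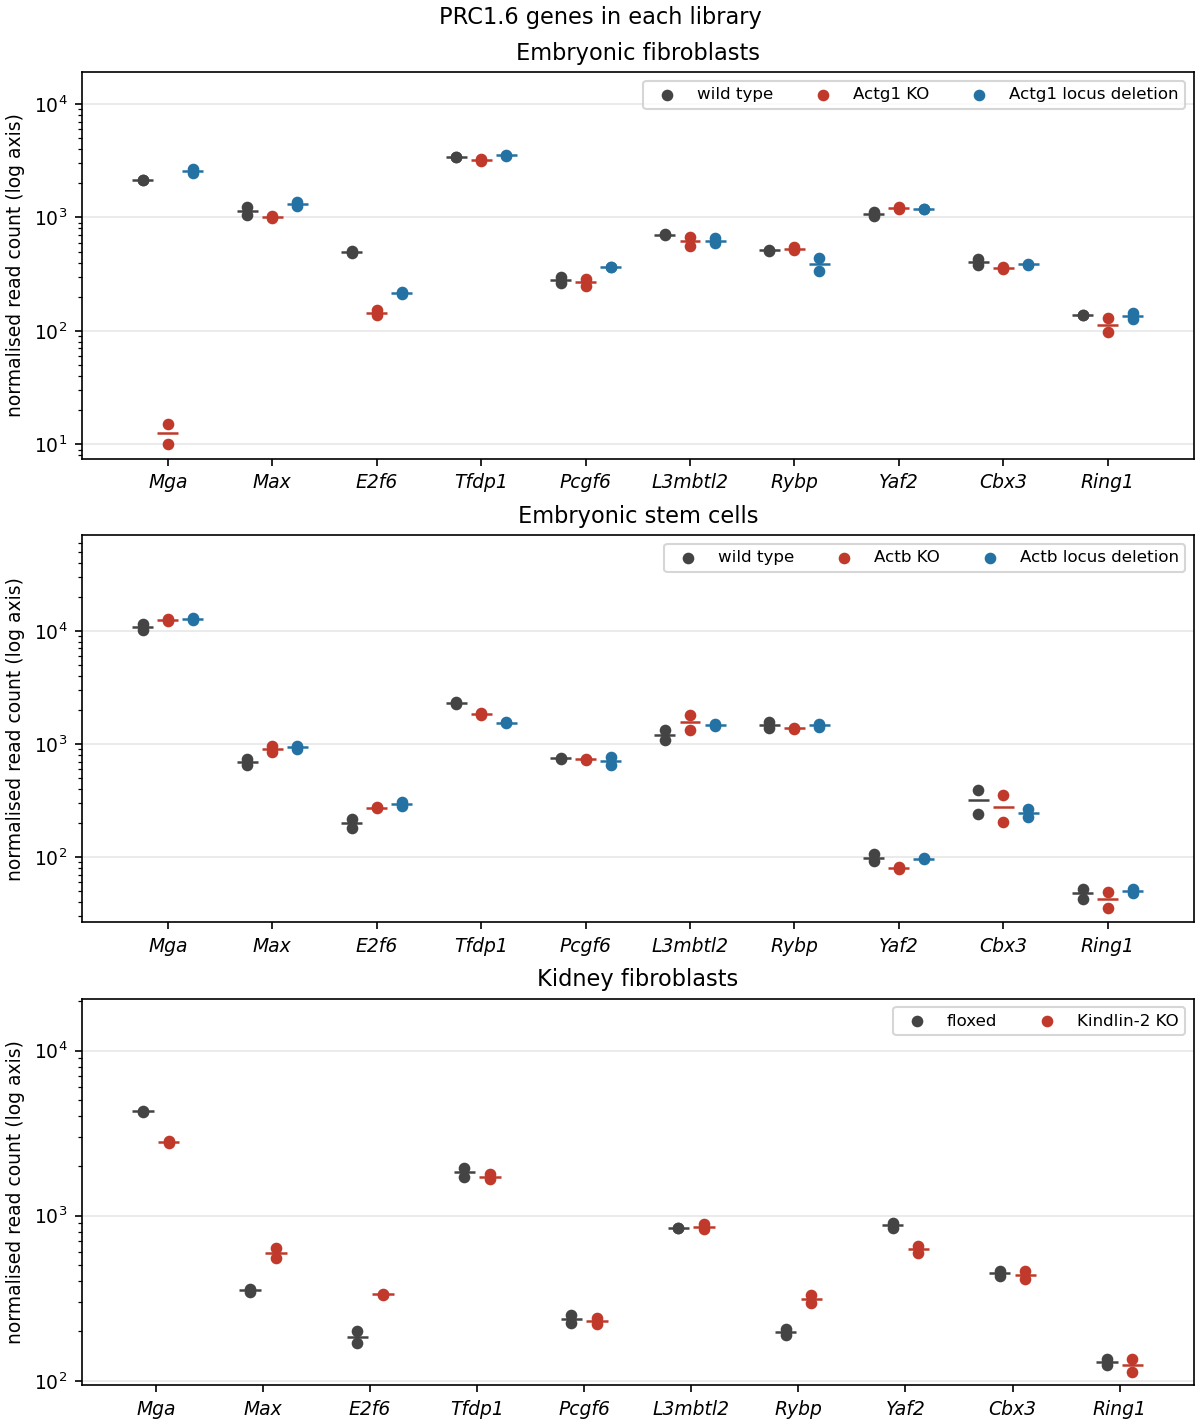
Normalised read counts (log axis) of the 10 genes in every library of MEFs, ESCs and MKFs, with a point per library and a bar at the mean of 2. The Mga points of Actg1 KO MEFs, at 15 and 10, lie 2 orders of magnitude below those of wild type and LD, and no other member has such a gap.

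In MEFs without the Actg1 locus, Mga was not lost. It was at 2485 and 2681 against 2130 and 2159 in wild type. Both LD libraries lay above both wild-type libraries. The difference of 0.27 on the log2 scale (95% interval −0.11 to 0.64) did not pass (limma, adjusted p = 0.294). The spread behind this interval is shared with the KO libraries, where Mga stood at 15 and 10. It is thus not the spread of the LD and wild-type libraries alone. E2f6 fell here too, from 502 and 487 to 220 and 213, to 43.8% of wild type. Its log2 fold change was −1.19 (SE 0.102; limma, adjusted p = 0.000247), and it passed with any 1 of the 4 libraries left out (highest adjusted p = 0.021). Chromosome 12 as a whole had a median of −0.15.

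Pcgf6, at 363 and 364 against 297 and 265, rose by 0.37 (SE 0.108; limma, adjusted p = 0.0452). This call was lost in all 4 fits that omit a library (adjusted p = 0.105 to 0.219). Rybp, at 337 and 443 against 519 and 505, did not pass (−0.41; limma, adjusted p = 0.0592), though both LD libraries lay below both wild-type ones. Without LD library 2 it passed (−0.60, adjusted p = 0.0188), and it also passed with either rescaling; its adjusted p ran from 0.0188 to 0.278 over all alternatives. Max (0.20), Yaf2 (0.14), Tfdp1 (0.05), Ring1 (−0.03), Cbx3 (−0.08) and L3mbtl2 (−0.17) did not pass (limma, adjusted p from 0.153 to 0.941). So 2 of 10 members were called in LD against wild type, 1 up and 1 down, where 22.0% of all genes tested were (9.46% higher and 12.6% lower). The groups did not overlap for 8 of 10, where 54.0% of all genes did not. Their median difference was 0.01, beside 0 for all genes. This is near the background and no result about the complex.

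**Figure D3:**
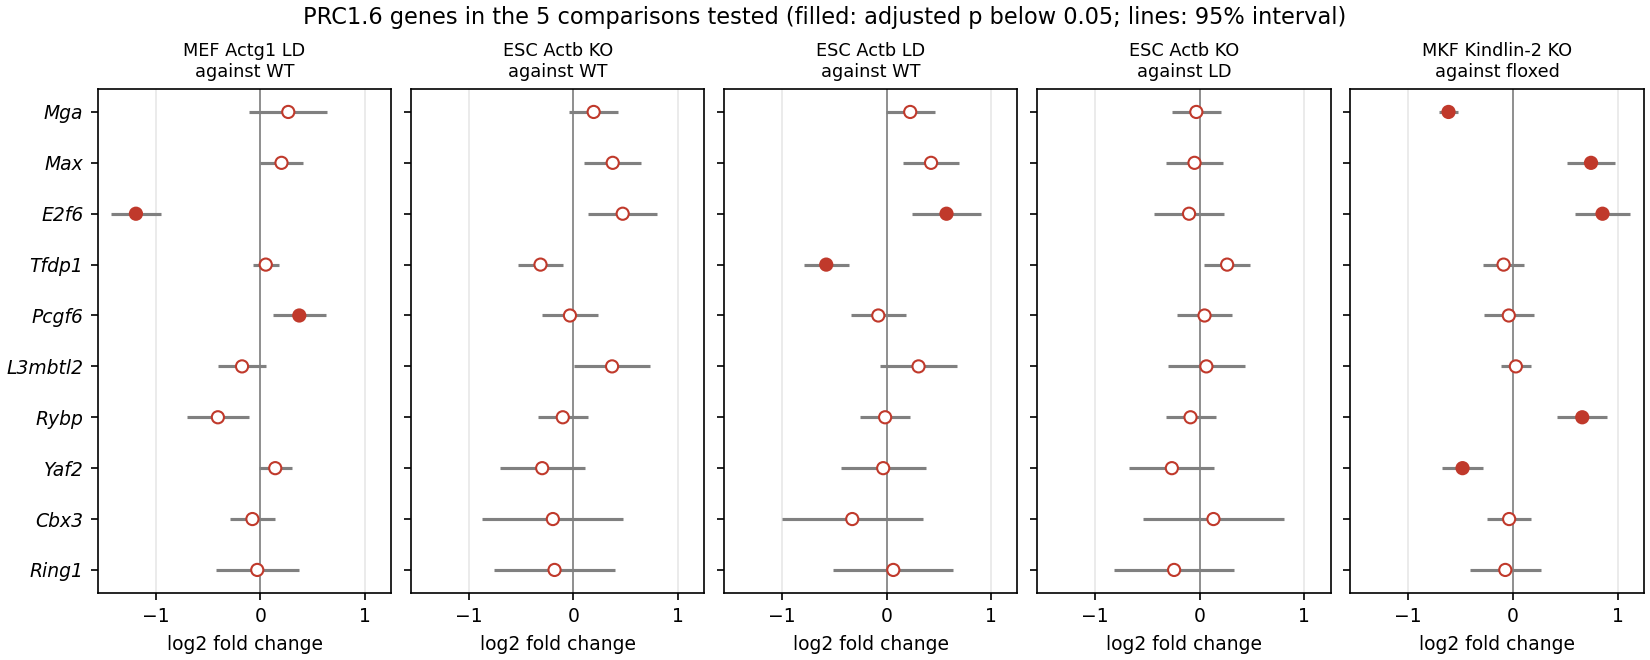
Log2 fold changes of the 10 genes in the 5 comparisons in which they were tested, with 95% intervals. Filled points passed the test: E2f6 and Pcgf6 in Actg1 LD MEFs, none in Actb KO ESCs against wild type or LD, Tfdp1 and E2f6 in Actb LD ESCs, and 5 genes in Kindlin-2 KO MKFs.

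Further subunits and partners that PRC1.6 shares with other complexes differed in the MEFs as well. Of 7 such genes 1 rose and 4 fell in KO against wild type (median −0.51, all genes 0.06), and 5 of 7 is 71.4% where 39.7% of all genes were called. Ehmt2, the histone H3K9 methyltransferase G9a, fell from 4711 and 4273 to 2144 and 2163 (−1.06; limma, adjusted p = 1.66e-05). Tfdp2, a paralogue of Tfdp1, fell from 2210 and 2263 to 1258 and 1194 (−0.87). Wdr5, a scaffold of several chromatin complexes, fell from 1181 and 1065 to 719 and 827 (−0.54), a call lost without 1 of the 4 libraries (adjusted p = 0.0512). The deacetylase gene Hdac2 rose from 6621 and 6807 to 10486 and 10439 (0.64). Wdr5, like Mga, lies on chromosome 2. In LD against wild type 2 of 7 fell (median −0.10), Hdac1 (−0.52) and Tfdp2 (−0.23; lost in all 4 fits that omit a library), where 22.0% of all genes were called. In KO against LD 2 rose and 4 fell (median −0.45, all genes 0.07), where 45.2% of all genes were called.

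Other Polycomb subunits showed both directions. Of 21 subunits of other PRC1 complexes 5 rose and 9 fell in KO against wild type (median −0.13; 66.7% called, 39.7% of all genes). Pcgf5, the paralogue of Pcgf6 in the PRC1.5 complex, fell from 2005 and 2083 to 822 and 756, and Usp7, a deubiquitinase of PRC1.1 and other complexes, from 8864 and 8650 to 4013 and 3889 (−1.37 and −1.15). Auts2, a subunit gene of PRC1.3 and PRC1.5, stood at 4 and 5 in KO and at 0 in all 4 other libraries. It is in the table only through the KO, so its place among the 5 was fixed by the table's floor of 4. Cbx7 stood at 0 and 5 against 12 and 22 in wild type, a call that held in 1 of 4 fits without a library. In LD against wild type 2 rose and 6 fell (median −0.13; 38.1% called, 22.0% of all genes). Scmh1, Cbx2 and Fbrsl1 fell there (−0.81, −0.78 and −0.68), and Pcgf1 rose (0.71). Without 1 library, the calls of Scmh1 and Fbrsl1 held in 4 of 4 fits, that of Cbx2 in 3 and that of Pcgf1 in 0 (highest adjusted p = 0.153).

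Factors of the MAX network, and factors that bind or regulate E2F sites, also differed. Of 9 MAX network genes measured in MEFs 4 rose and 1 fell in KO against wild type (median 0.16; 55.6% called, 39.7% of all genes), and 4 rose and 1 fell in LD against wild type (median −0.02; 55.6%, beside 22.0%). Mycl, a MYC paralogue, rose from 6 and 2 to 45 and 56 in KO and to 32 and 54 in LD, but its calls were lost in 2 and 1 of the fits that leave out a library (adjusted p up to 0.0655). The MAX-binding repressor genes Mxd4 (0.83) and Mxd1 (0.79) rose in KO, and Mxd3 fell in both (−0.71 and −0.46). Without 1 library, the KO calls of Mxd1 and Mxd3 held in 2 of 4 fits each (highest adjusted p = 0.0562 and 0.0761) and the LD call of Mxd3 in 0. Myc rose in LD from 1591 and 1537 to 2573 and 2466 (0.69). Of 10 E2F and pocket protein genes 3 rose and 6 fell in KO against wild type (median −0.29; 90% called, 39.7% of all genes), and 1 rose and 5 fell in LD (median −0.29; 60%, beside 22.0%). The activator E2f1 fell from 1316 and 1244 to 700 and 692 in KO and to 857 and 896 in LD. Rb1, the retinoblastoma gene, rose from 371 and 419 to 674 and 627 in KO (0.72) and fell to 284 and 296 in LD (−0.44), the latter a call that held in only 1 of 4 fits without a library (highest adjusted p = 0.0977).

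Germline genes are the best known targets of PRC1.6, and 28 of them were examined. Their promoters were searched for the motifs that MGA and MAX (the E-box CACGTG, the same on both strands), E2F6 (the core TCCCGC on either strand) and the T-box (AGGTGTGA on either strand) are known to bind. RefSeq promoters of 300 bases on GRCm38.p6 were found for 24 of the 28 (not Majin, Meiob, Spo11 or Tex11) and for 8 of the 10 members (not Rybp or Yaf2). CACGTG occurred in 12 of the 24 germline genes (50%), against 8.09% of 27025 genes with a promoter. TCCCGC also occurred in 12 (50%, against 22.1%), and its longer form TTCCCGC, which includes it, in 10 (41.7%, against 5.29%). Both CACGTG and TCCCGC occurred in 7 (29.2%, against 2.32%), and AGGTGTGA in 1 (4.17%, against 1.48%). Of the 8 members, 2 held CACGTG and 2 held TCCCGC. The 3 promoters of Hormad1, Stag3 and Slc25a31, genes of meiotic chromosomes and of a sperm mitochondrial carrier, hold both motifs. That of Tex101, a gene of a germ cell surface protein, holds none. All 4 run from 250 bases before to 50 after a start, with matches in capitals.
Hormad1, chr3:95559427-95559726, plus strand: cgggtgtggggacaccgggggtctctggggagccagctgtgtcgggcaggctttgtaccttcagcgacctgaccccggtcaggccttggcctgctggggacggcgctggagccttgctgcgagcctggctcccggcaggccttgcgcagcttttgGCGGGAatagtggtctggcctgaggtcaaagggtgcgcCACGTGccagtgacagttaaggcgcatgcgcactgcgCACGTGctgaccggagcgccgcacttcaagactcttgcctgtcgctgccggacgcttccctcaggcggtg
Stag3, chr5:138280259-138280558, plus strand: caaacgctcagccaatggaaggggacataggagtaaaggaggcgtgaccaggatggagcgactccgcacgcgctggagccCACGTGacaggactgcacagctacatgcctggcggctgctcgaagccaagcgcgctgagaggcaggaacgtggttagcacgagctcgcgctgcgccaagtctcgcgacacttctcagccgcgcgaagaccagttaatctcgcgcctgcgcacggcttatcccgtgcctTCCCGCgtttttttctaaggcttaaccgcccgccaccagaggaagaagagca
Slc25a31, chr3:40708621-40708920, plus strand: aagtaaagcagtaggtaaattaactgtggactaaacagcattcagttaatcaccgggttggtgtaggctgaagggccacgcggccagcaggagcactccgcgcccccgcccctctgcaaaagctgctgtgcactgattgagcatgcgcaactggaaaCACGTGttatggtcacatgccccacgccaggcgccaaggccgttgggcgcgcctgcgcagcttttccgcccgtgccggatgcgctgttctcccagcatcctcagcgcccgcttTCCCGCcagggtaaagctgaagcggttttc
Tex101, chr7:24672001-24672300, minus strand: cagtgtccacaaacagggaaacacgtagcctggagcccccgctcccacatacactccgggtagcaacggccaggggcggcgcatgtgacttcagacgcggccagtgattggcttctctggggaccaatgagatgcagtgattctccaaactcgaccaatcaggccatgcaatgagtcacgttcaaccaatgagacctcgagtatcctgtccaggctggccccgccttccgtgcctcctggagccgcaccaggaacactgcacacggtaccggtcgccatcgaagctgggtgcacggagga

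In MEFs, 12 of the 28 germline genes were measured. Every gene of this table reaches at least 4 in some library, so a gene that reaches this only in the KO had to be higher there, and the counts and medians are a description. Tex101, Tex11 and Tdrd9 are such genes. In KO against wild type 5 of 12 rose and 2 fell (median 1.26, all genes 0.06), 58.3% called where 39.7% of all genes were. In LD against wild type 1 rose and 2 fell (median −0.01; 25.0% called, 22.0% of all genes). In KO against LD 4 rose and 1 fell (median 0.70; 41.7% called, 45.2% of all genes).

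Tex101 stood at 108 and 121 in KO MEFs, at 3 and 0 in wild type and at 0 in both LD libraries. It is in the table only through the KO, so these levels are given with no test. Its promoter holds none of the motifs searched. Stag3, a cohesin subunit gene of meiosis with both motifs, went the other way: it stood at 83 and 82 in wild type, 7 and 12 in KO and 10 and 7 in LD, a fall of 3.03 and 3.15 on the log2 scale (limma, adjusted p = 0.000417 and 0.000902). The KO and LD libraries overlapped for Stag3. The part of Mga in these germline levels was not tested.

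Zcwpw1, a histone reader of meiotic recombination, stood at 680 and 773 in wild type, 1587 and 1640 in KO and 449 and 450 in LD. It rose in KO (1.15) and fell in LD (−0.69). Tdrkh, a Tudor domain gene of the piRNA pathway, rose from 70 and 91 to 205 and 223 in KO (1.41) and to 145 and 177 in LD (1.00); the LD call was lost in 2 of 4 fits without a library (highest adjusted p = 0.0682). Sycp2, of the synaptonemal complex, fell in KO to 6 and 8 from 20 and 27, with LD at 22 and 35. Against LD the call held in 2 of 4 such fits. Like Mga, Sycp2 lies on chromosome 2, whose medians in KO were −0.53 against wild type and −0.63 against LD. Taf7l stood at 5 and 10 in KO, 2 and 1 in wild type and 5 and 4 in LD. Tex11 stood at 6 and 4 in KO and Tdrd9 at 3 and 6, with both at 0 in both LD libraries. Smc1b, Sycp1, Sycp3 and Meioc did not pass in any MEF comparison.

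**Figure D4:**
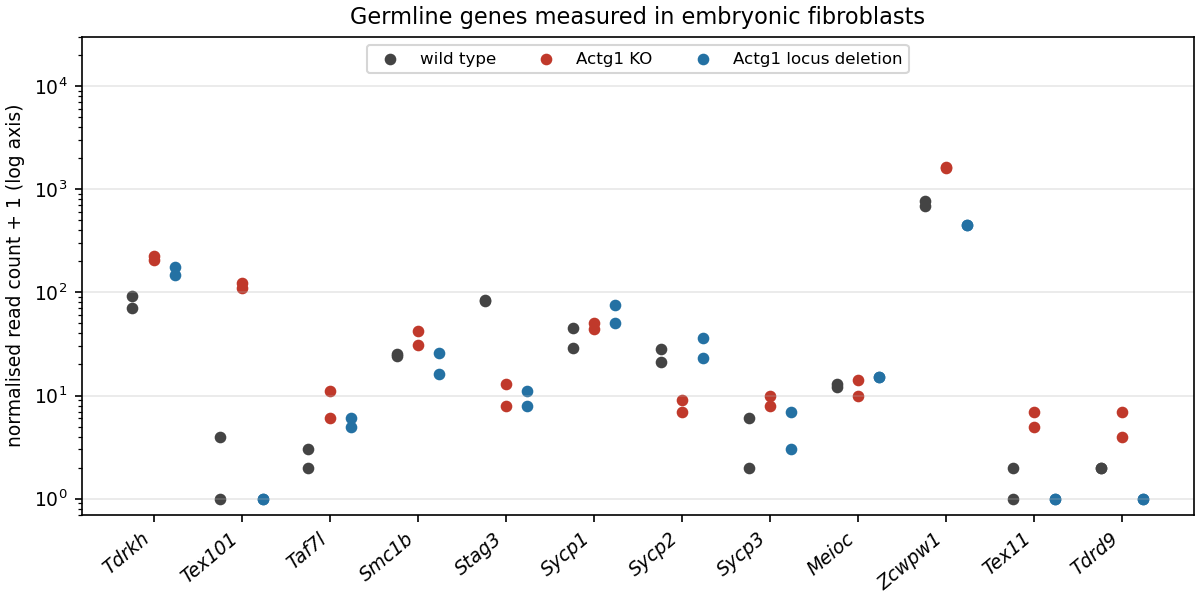
Normalised read counts plus 1 (log axis) of the 12 germline genes measured in MEFs, with a point per library. Tex101 is high in both KO libraries (108 and 121), Stag3 is low in both KO and both LD libraries, and Zcwpw1 is highest in KO and lowest in LD.

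Levels of the 10 genes were next set side by side over cell types, as values scaled to a library sum of 1000000 and per kb of exon. The tables were normalised separately, so levels across them are approximate and were not tested. In wild-type ESCs Mga led at 44.1 ± 3.98, ahead of Tfdp1 at 39.0 ± 1.35 and Rybp at 19.4 ± 1.61 (SD, n = 2). L3mbtl2 (12.6) and Max (12.1) followed with overlapping libraries, then Pcgf6 (9.28), then Yaf2 and Cbx3 (both 3.31), which overlapped, E2f6 (2.19) and Ring1 (0.922). In wild-type MEFs Tfdp1 (42.9) and Yaf2 (26.6) led, ahead of Max (14.7), and Mga was next at 6.47. L3mbtl2 (5.48), Rybp (5.0), E2f6 (4.04), Cbx3 (3.15), Pcgf6 (2.59) and Ring1 (1.97) followed. In floxed MKFs Tfdp1 (31.1) and Yaf2 (28.9) overlapped at the top, ahead of Mga at 17.3. L3mbtl2 (8.77), Max (6.10), Cbx3 (4.63) and Pcgf6 (2.93) came next, then Rybp (2.59) and Ring1 (2.49), which overlapped, and E2f6 (2.03).

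The alternative subunits Rybp and Yaf2 changed places between cell types. The Rybp to Yaf2 ratio per kb was 5.93 ± 1.11 in wild-type ESCs, 0.188 ± 0.0156 in wild-type MEFs and 0.0896 ± 0.00966 in floxed MKFs. In KO MKFs it was 0.198 ± 0.00177. Of the ligase pair, Ring1 was the lower in all groups, at a ratio to Rnf2 of 0.0224 ± 0.00595 in wild-type ESCs, 0.111 ± 0.00133 in wild-type MEFs and 0.122 ± 0.0053 in floxed MKFs.

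**Figure D5:**
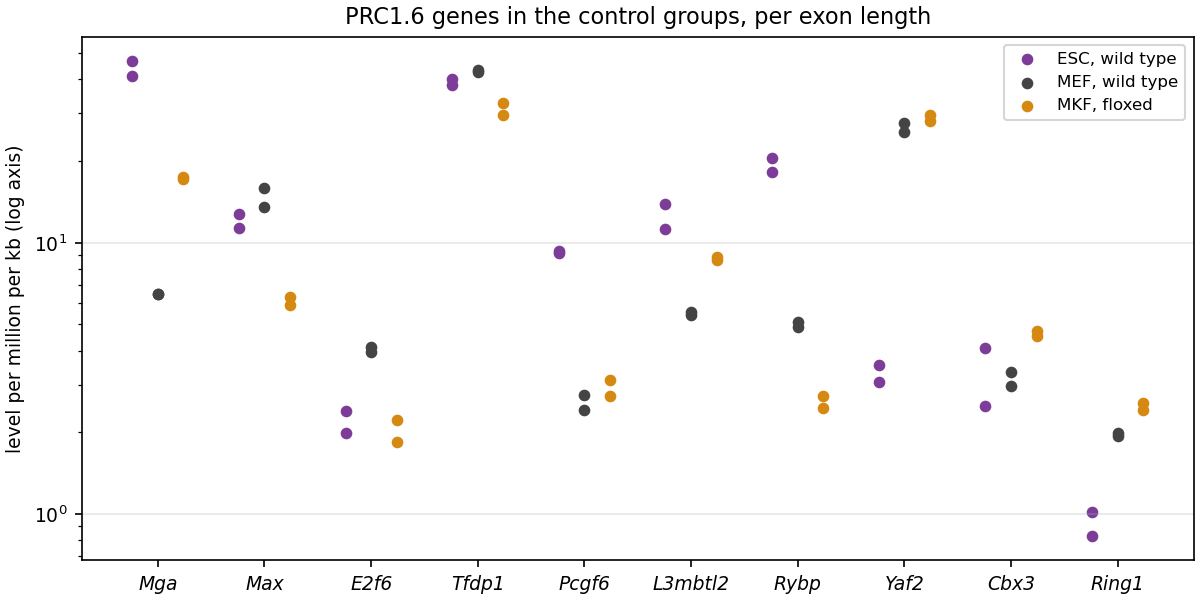
Level at a library sum of 1000000 and per kb of exon (log axis) of the 10 genes in wild-type ESCs, wild-type MEFs and floxed MKFs, with a point per library. Mga and Rybp are highest in ESCs (44.1 and 19.4) and Yaf2 is lowest there (3.31).

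In ESCs 0 of the 10 genes passed when Actb was knocked out. This count is near the share of all genes called, given below, and is no result about the complex. Mga stood at 12092 and 12714 in KO, 12427 and 12941 in LD and 10190 and 11541 in wild type. Wild type was lowest and the KO and LD libraries overlapped. The differences from wild type were 0.19 in KO (95% interval −0.04 to 0.43) and 0.23 in LD (−0.01 to 0.46), and neither passed (limma, adjusted p = 0.341 and 0.205). In KO against wild type 0 of 10 members were called by limma, where 4.88% of 23054 genes were (2.44% higher and 2.44% lower). The groups did not overlap for 7 of 10, where 46.8% of all genes did not, and their median difference was −0.07, beside 0 for all genes. At an unadjusted p below 0.05 there were 4: Tfdp1 (−0.31), E2f6 (0.47), Max (0.38) and L3mbtl2 (0.37). In KO against LD 0 of 10 were called by limma, where 4.88% of all genes were (2.56% higher and 2.32% lower), 4 of 10 did not overlap, where 46.4% of all genes did not, and Tfdp1 (0.26) was the 1 at an unadjusted p below 0.05.

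In ESCs without the Actb locus Tfdp1 fell and E2f6 rose. Tfdp1 stood at 1527 and 1555 in LD, 1876 and 1820 in KO and 2359 and 2239 in wild type, and all 3 groups were apart. Its fall in LD was of 0.58 (SE 0.0946; limma, adjusted p = 0.00739). Tfdp1 lies on chromosome 8, whose 615 genes had a median of −0.40 in LD and −0.35 in KO against wild type, so it lay near its chromosome's level. E2f6 stood at 309 and 282 in LD and 277 and 273 in KO against 181 and 217 in wild type, a rise of 0.57 in LD (SE 0.145; limma, adjusted p = 0.0396). Both calls were lost with each of the 4 libraries left out in turn (adjusted p = 0.0687 to 0.076 for Tfdp1 and 0.0852 to 0.199 for E2f6).

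Max stood at 900 and 970 in LD and 855 and 953 in KO against 739 and 655 in wild type. It did not pass in LD (0.42; limma, adjusted p = 0.0548) but passed with a replicate block (adjusted p = 0.0351, the lowest of its alternatives, which reached 0.244). In all, 2 of 10 members were called in LD against wild type, 1 up and 1 down, where 11.2% of all genes were (5.19% higher and 6.0% lower). The groups did not overlap for 5 of 10, where 49.7% of all genes did not, and their median difference was 0.03, beside 0.01. Pcgf6 (−0.08), L3mbtl2 (0.31), Rybp (−0.01), Yaf2 (−0.03), Cbx3 (−0.33) and Ring1 (0.06) did not pass there (limma, adjusted p from 0.272 to 0.957).

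The shared subunits and partners had 0 of 7 calls in limma in each of the 3 ESC comparisons (of all genes 4.88%, 11.2% and 4.88% were called), with medians of 0.09, 0.13 and −0.03. At an unadjusted p below 0.05 there was 1 in each. Among other PRC1 subunits 7 of 21 rose and 0 fell in LD against wild type (median 0.22, all genes 0.01; 33.3% called, 11.2% of all genes), and 1 was lower at an unadjusted p below 0.05. Bcor, a PRC1.1 subunit gene, rose from 856 and 865 to 1439 and 1419, and Fbrsl1, an AUTS2 relative, from 554 and 566 to 1013 and 1219. Cbx8 (1.15), which encodes a Polycomb protein that reads methylated H3K27, rose too. The calls of Bcor, Fbrsl1 and Cbx8 were lost in all 4 fits that omit a library (adjusted p = 0.0516 to 0.12). In KO against wild type 1 of 21 rose, Phc1 (0.42; 4.76% called, 4.88% of all genes), and 0 fell, with 2 lower at an unadjusted p below 0.05. Of 11 MAX network genes Myc rose in KO (3.40) and in LD (1.51), from 22 and 16 to 235 and 184 and to 50 and 61, and Mnt rose in LD (0.54), with medians of 0.15 and 0.18 and with 9.09% and 18.2% called, beside 4.88% and 11.2% of all genes. These calls, and that of Phc1, were lost in all 4 fits that omit a library. The 10 E2F and pocket protein genes had 0 calls in limma in the 3 comparisons, and at an unadjusted p below 0.05 there were 2, 4 and 2 in KO against wild type, LD against wild type and KO against LD.

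Germline genes moved in both directions in ESCs, where 27 of the 28 were measured. In KO against wild type 1 rose and 6 fell (median −0.02; 25.9% called, 4.88% of all genes). In LD against wild type 5 rose and 3 fell (median 0.17; 29.6% called, 11.2% of all genes), and in KO against LD 2 rose and 6 fell (median −0.13; 29.6%, beside 4.88%). In none of these comparisons did Mga pass.

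Dazl, an RNA-binding regulator of germ cells, stood at 1444 and 1305 in LD, 385 and 418 in wild type and 360 and 328 in KO. It rose in LD by 1.77 (limma, adjusted p = 0.000174), with any library left out as well (highest adjusted p = 0.047). Hormad1, which monitors meiotic chromosome axes and whose promoter is shown above, stood at 1041 and 1029 in LD, 530 and 578 in wild type and 393 and 358 in KO. It was lower in KO than in LD by 1.46 (limma, adjusted p = 0.000679), lost in all 4 fits that omit a library (adjusted p up to 0.104). Stra8, a gatekeeper of meiosis, fell from 78 and 73 to 18 and 21 in KO and to 1 and 3 in LD. The LD call held in 2 of 4 fits without a library (highest adjusted p = 0.0632), and the KO call in 0. Tuba3a stood at 283 and 223 in LD against 84 and 56 in KO, and Tuba3b at 11 and 14 in LD against 1 and 0 in wild type. These testis tubulin genes are near-identical copies whose reads may be split. Slc25a31 rose from 2 and 3 to 12 and 12 in LD. The calls of Tuba3a in KO against LD, and of Tuba3b and Slc25a31 in LD against wild type, were lost in all 4 fits that omit a library. Rpl10l, Meioc and Stra8 fell most in KO, with Stk31 the 1 that rose (0.84), and these 4 calls were lost in all 4 fits that omit a library.

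In Kindlin-2 KO MKFs Mga fell. It stood at 2837 and 2764 in KO against 4275 and 4301 in floxed cells, 65.3% of the floxed level, with a log2 fold change of −0.61 (SE 0.0353; limma, adjusted p = 0.000292). The groups did not overlap, and the call held with any library left out (highest adjusted p = 0.0474). Chromosome 2 as a whole had a median of 0.21 here over 834 genes. Much of the transcriptome moved in this comparison: 49.2% of 18288 genes were called and 73.3% did not overlap. The groups did not overlap for 5 of 10 members, a lower share than among all genes. With 5 of 10 members called (50%), the calls stood at the background (median −0.04, all genes 0.01). Their count is no result about the complex. The epithelial markers, summing to 2046 and 2187 in floxed and to 20292 and 20867 in KO cells, moved with it, and their part was not tested.

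Max and E2f6 rose in KO MKFs. Max stood at 639 and 553 against 362 and 346 (0.75; limma, adjusted p = 0.00235), and E2f6 at 333 and 338 against 201 and 170 (0.86; limma, adjusted p = 0.00247). Both lie on chromosome 12, whose 375 genes had a median of 0.69, so both lay near it. Each call was lost in 2 of 4 fits without a library (highest adjusted p = 0.106 and 0.104). The Mga to Max ratio per kb was 2.84 ± 0.103 in floxed and 1.11 ± 0.0926 in KO cells (SD, n = 2).

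Rybp rose in them from 205 and 190 to 331 and 296 (0.66; limma, adjusted p = 0.00391), and Yaf2 fell from 840 and 907 to 657 and 595 (−0.48; limma, adjusted p = 0.00553). Both calls were lost in all 4 fits that omit a library (highest adjusted p = 0.0997 and 0.124). Their chromosomes, 6 and 15, had medians of −0.26 and −0.30. Tfdp1 (−0.09), Pcgf6 (−0.04), L3mbtl2 (0.03), Cbx3 (−0.04) and Ring1 (−0.07) did not pass (limma, adjusted p from 0.375 to 0.755).

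All 7 shared subunits and partners changed in these cells, 2 up and 5 down (median −0.25, all genes 0.01), where 49.2% of all genes were called. Tfdp2 fell from 1459 and 1550 to 616 and 641 (−1.26), and Wdr5 rose from 671 and 526 to 903 and 920 (0.62), a call that held in 1 of 4 fits without a library (highest adjusted p = 0.216). Of 21 other PRC1 subunits 4 rose and 9 fell (median −0.18; 61.9% called, 49.2% of all genes), with Phc2 up (1.01) and Bcor down (−0.91), calls that held in 4 of 4 fits without a library. Of 11 MAX network genes 4 rose and 2 fell (median 0.17; 54.5%, beside 49.2%). Mycn rose from 5 and 7 to 161 and 144, and Myc from 883 and 913 to 1567 and 1525. Of 10 E2F and pocket protein genes 2 rose and 2 fell (median 0.10; 40%, beside 49.2%), and the 2 that fell were Rb1 and Rbl2 (−0.94 and −0.95), calls that held in 2 of 4 fits without a library. Of the 12 germline genes measured in MKFs 3 rose and 3 fell (median 0.48, with 50% called beside 49.2% of all genes). Every gene of this table reaches at least 5 in some library, and Ddx4, Tdrd1, Meiob and Sycp3 do so only in the KO. Such genes had to be higher there, so the count and the median are a description. Tdrd9, a helicase gene of the piRNA pathway whose promoter holds CACGTG, rose from 5 and 6 to 48 and 50 (2.95; limma, adjusted p = 0.000732), also with any library left out (highest adjusted p = 0.0451). Stag3 stood at 21 and 29 against 41 and 42 (−0.73), a call lost in all 4 fits that omit a library.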

How the data were processed

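Total RNA of 16 libraries was sequenced after preparation with a SMARTer stranded kit, per the labels' protocols. STAR 2.5.3a, Subread with featureCounts 1.6.0, DESeq2 1.14.1, FastQC and the build mm10 appear in the submitters' processing notes without a stated role. The strand setting of the counting and its handling of reads that match more than 1 gene are not given in the sources used here. Max, L3mbtl2 and Rybp overlap other annotated genes, among them the antisense gene Chadl for L3mbtl2. The deposited values are a score, whole numbers that look like counts per gene which the authors scaled library by library and then rounded. They are called normalised read counts and were not treated as counts. One read was estimated, from gaps in low values, to be worth 0.714 to 1.30, which gives 12730000 to 24470000 reads per library.

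Each table was fitted once, over all of its groups, on log2(value + 1) for genes with a mean of at least 1 (R 4.3.3, limma 3.58.1, variance moderated along a mean trend). They were two-sided, with Benjamini-Hochberg adjustment over all genes and calls below 0.05. The fit was tested on simulated data. The bar first set for recovering 2-fold changes was missed in the MKF comparison alone, which has 2 residual degrees of freedom, and was then moved to 3-fold for all comparisons; MKF calls of 2-fold and smaller changes are thus incomplete, and a gene that did not pass there may still differ. Fold changes understate those of low genes. Symbols and positions are from GENCODE M21 and promoters from RefSeq. The genes named were all members, all neighbours, the 5 genes most like Mga and, per list and comparison, up to 4 called genes with the largest change and no overlap; where a gene named in 1 comparison is described in another, or Smc1b, Sycp1, Sycp3, Meioc and Mxd3 are named, that was chosen after its values were seen. Members and lists were chosen with earlier results of these data known. ESC libraries of the same number deviated together (correlations of 0.678, 0.349 and 0.492 between groups), a pairing seen in the values only, so a replicate block is given where it changes an ESC call. Alternatives were other pseudocounts and filters, rescaling, the block, fits of only the libraries compared, and leaving out each library.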

Additional observations from a re-analysis of the deposited data

How the results depend on the processing

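With 2 libraries a group, the number of calls depended on which libraries entered the fit, and a library left alone in its group was assumed to vary like the others. Depth limits genes of a few reads most. For single genes, 1919 alternative values kept their side of the threshold, 375 lost their call and 7 gained one. Of the lists, the 5 genes most like Mga moved under a higher minimum level (1 shared), and no direction reversed. Leaving out 1 library brought the genes called in MEFs from 8581 to between 4384 and 5879 (KO against wild type), from 4755 to between 1803 and 3321 (LD against wild type) and from 9754 to between 5759 and 8205 (KO against LD). In ESCs it brought them from 1126 to between 0 and 18, from 2580 to between 58 and 370, and from 1125 to between 1 and 30, and in MKFs from 8998 to between 2112 and 3834. Germline genes called then numbered 3 to 6 in MEF KO against LD (5 with all libraries), 0 in ESC KO against wild type (7), 1 to 2 in LD against wild type (8), 0 to 1 in KO against LD (8) and 1 to 2 in MKFs (6). Members called numbered 1 to 2 in MEF LD against wild type (2), 0 in ESC LD against wild type (2) and 2 in MKFs (5), and neighbours of Mga 4 to 7 (7). The members' median ran from −0.177 to −0.0821 in MEF KO against wild type and from −0.282 to −0.119 against LD; rescaling without genes over 1% gave −0.0941 and −0.107.

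Fitting only the libraries compared gave 2986 genes in MEF LD against wild type, and 272, 876 and 214 in ESC KO against wild type, LD against wild type and KO against LD, with 1, 5 and 3 germline genes. It left 1 member in MEF LD and 1 in ESC LD against wild type, and so did rescaling without genes over 1% in the latter. A mean of at least 10 left 3 germline genes in MEF KO against LD. The cause of these shifts was not tested, beyond the fewer samples or genes in each fit. The replicate block gave 1850 and 1735 genes in ESC KO against wild type and against LD. It gave 1 member in MEF LD against wild type and 3 germline genes in MKFs. In MEFs same-numbered libraries deviated together weakly for KO and LD (correlation of 0.214), but not for wild type with KO (−0.302) or with LD (−0.211). They did not in MKFs (−0.0952), and the labels state no pairing. Rescaling without genes over 1% split the ESC KO against wild type calls as 467 higher and 786 lower (563 and 563 before), and moved the median of all genes to 0.14 in MEF KO against wild type and 0.16 against LD.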

Other observations

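Other silencing systems of the same libraries were looked at as a description. Of 12 PRC2 subunit genes, which serve H3K27 methylation, 3 rose and 3 fell in Actg1 KO against wild-type MEFs. The median was −0.06, and 39.7% of all genes were called. In LD against wild type 2 rose and 5 fell (median −0.05, beside 22.0% of all genes called). Among these 5, Epop stood at 7 and 4 in wild type, 3 and 2 in KO and 0 in both LD libraries. It reaches the table's floor of 4 only in wild type, so it had to be lower in LD. Ezh1, the alternative methyltransferase, rose in KO from 240 and 227 to 440 and 475 (0.97; limma, adjusted p = 0.00025). In ESCs 3 of 12 rose and 0 fell in Actb LD against wild type (median 0.23; 11.2% of all genes; 1 was lower at an unadjusted p below 0.05 in limma): Aebp2 (0.71), Jarid2 (0.71) and Suz12 (0.53). These 3 calls were lost in all 4 fits that omit a library (highest adjusted p = 0.115).

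Of the genes of DNA methylation and H3K9 silencing, 3 of 10 rose and 4 fell in Actg1 KO against wild-type MEFs. The median was −0.04, and 70% were called beside 39.7% of all genes. Uhrf1 and Dnmt1 were called lower than wild type both in KO (−1.0 and −0.45) and in LD (−0.60 and −0.54). Uhrf1, which recruits the maintenance methyltransferase, fell from 7417 and 7230 to 3513 and 3814 (−1.0), and Dnmt1 fell in LD from 10967 and 10807 to 7038 and 8009 (−0.54); both calls held in 4 of 4 fits that omit a library. In ESCs Dnmt3l, a cofactor of de novo methylation, stood at 2513 and 2437 in Actb KO, 880 and 699 in wild type and 830 and 841 in LD (1.66 against wild type; limma, adjusted p = 0.000531), a call lost in all 4 fits that omit a library (highest adjusted p = 0.118). Dnmt3a stood at 703 and 793 in LD against 1366 and 1537 in wild type (−0.96), a call that held in 1 of 4 such fits.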
